A study of Mus musculus with 6 samples.

Results

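The integrin chains described here are Itga1, Itga4, Itga6, Itgal, Itgav, Itgb1 and Itgb2, measured in invariant natural killer T (iNKT) cells, innate-like T cells that read lipids shown by CD1d and need the transcription factor PLZF to form. They were taken by name, as chains of collagen, laminin, VLA-4 and LFA-1 receptors together with Itgav, and leave out the CD103 chain Itgae. The set is not complete for these receptors, since the collagen receptor chain Itga2 is described apart. It was chosen with earlier results of these data known. A gene was read from the array row with exactly 1 gene symbol and, where it had several such rows, from the one with the highest mean over the 6 arrays. All 7 chains were measured, among 22180 genes in all, on 8 rows, since Itgav had a second row. PLZF_ON mice express a PLZF that is constitutively acetylated, and the iNKT cells of 3 PLZF_ON samples were compared with those of 3 WT control samples. The study names replicates 1 and 2 of each group as the samples it analysed, so the main comparison ran over 4 arrays, and replicate 3 of each group was added in a comparison over 6 arrays. The labels give iNKT cells as the cell type and frozen tissue as the source of RNA, and the organ, the age of the mice and the promoter that drives the altered PLZF are not stated there. Whether replicates are different animals is not stated either, so the tests cover the spread among these arrays, part of which may be technical. All levels are log2 RMA values from Affymetrix whole-transcript arrays, and 1 unit is a doubling of signal.

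Integrins are surface receptors made of an alpha and a beta chain, and a chain reaches the surface only with a partner. The alpha chain largely sets the ligand: Itga1 (CD49a) with Itgb1 (CD29) binds collagen, Itga6 (CD49f) with Itgb1 binds laminin, Itga4 (CD49d) with Itgb1 forms VLA-4, which binds VCAM-1 and fibronectin, and Itgal (CD11a) with Itgb2 (CD18) forms LFA-1, which binds ICAMs. In T cells, LFA-1 and VLA-4 serve arrest on endothelium and contact with other cells, and CD49a marks many cells that stay in tissue.

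The T cell label fitted the arrays, and PLZF_ON replicate 3 stood apart. Detection flags were not used here, so the 95th percentile of the mean levels of 1400 rows of olfactory and vomeronasal receptor genes (5.20) served as a background limit. All 5 measured T cell markers and all 5 measured iNKT markers lay above it on every array, against 0 or 1 of 5 B cell markers. Cd5 is in both of the first lists and Zbtb16, an iNKT marker, encodes PLZF itself. The iNKT label was thus not tested apart from the T cell label. PLZF_ON replicate 3 correlated with the other arrays at 0.895 to 0.898 across rows, while the correlations among the other 5 arrays reached 0.973. Its mean over 6 immature thymocyte markers was 6.71, against 4.36 to 4.53 on the other 5 arrays, Cd24a was at 9.58 there, against 4.41 to 5.27, and the mean of 2 CD8 T cell markers was 7.16, against 4.76 to 5.14. The mean of 7 macrophage and monocyte markers was 4.75 there, against 4.245 to 4.384. Within that list Lyz2 was higher, at 6.58 against 3.96 to 4.48, and Cd68 lower, at 5.32 against 6.45 to 6.95. The mean of 5 epithelial markers was 5.47, against 4.75 to 4.91. The B cell, platelet and fibroblast marker means were also highest there, at 4.34, 4.81 and 5.22. Their highest values on other arrays were 4.18, 4.68 and 5.20, so the rise was not particular to macrophage or epithelial markers. The T cell and iNKT marker means were lowest there, at 10.03 and 8.69. The median over all rows was 5.01 there, against 4.88 to 4.92, and the SD was 1.79, against 1.97 to 2.01. What part these markers have in the levels on that array was not tested. Results that use this array are therefore given with and without it. Over the 4 arrays 0.170% of 23521 rows passed a limma adjusted p of 0.05, and over the 6 arrays 0.0935% did.

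Among the 7 chains, the collagen receptor chain Itga1 was about 4 times lower in PLZF_ON cells and the VLA-4 chain Itga4 was higher. The shared chain Itgb1 was lower to a smaller degree, and over the 4 arrays the LFA-1 chains were close to their WT level. Over the 4 arrays 0 of 7 passed limma after adjustment over all rows, where 0.0680% of all rows passed as lower and 0.102% as higher. An unadjusted p under 0.05 by limma was found for 3 of 7, Itga1 and Itgb1 as lower and Itga4 as higher, beside 9.41% of all rows (4.53% lower and 4.88% higher). The groups did not overlap for 6 of 7 chains, 4 lower and 2 higher in PLZF_ON, beside 38.2% of all rows (19.3% lower and 18.9% higher). With all 6 arrays 1 of 7, Itga1, passed after adjustment, beside 0.0680% of all rows as lower and 0.0255% as higher. An unadjusted p under 0.05 by limma over the 6 arrays was again found for Itga1, Itga4 and Itgb1, beside 5.77% of all rows (3.32% lower and 2.45% higher). The groups stayed apart over the 6 arrays for 4 of 7, 3 lower and 1 higher, beside 11.8% of all rows (6.22% lower and 5.55% higher). The median difference of the 7 chains was -0.17 over the 4 arrays and -0.39 over the 6, beside -0.0035 and 0.03 over all tested rows. These medians cover rows of unlike brightness, since all 7 chains had a mean above the background limit, against 11119 of 23521 rows. Itga6, Itgal, Itgav, Itgb1 and Itgb2 had their lowest level on PLZF_ON replicate 3, which enters only the 6-array median.

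**Figure D1:**
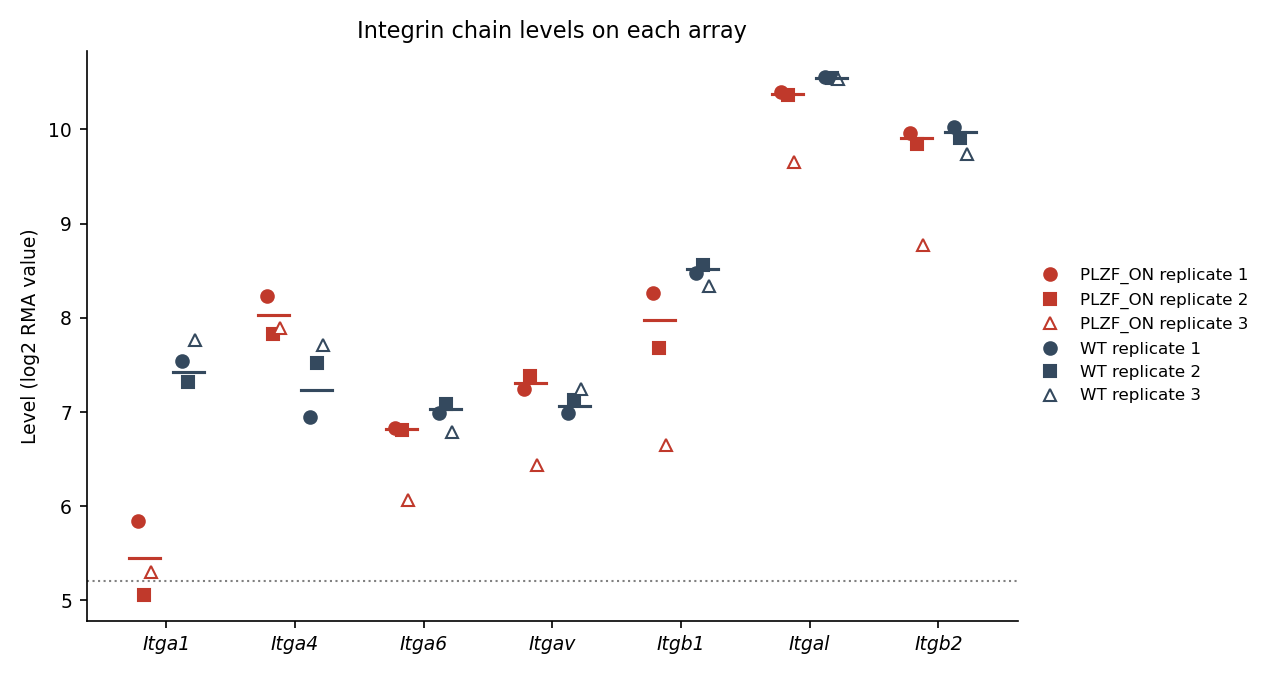
Level of each integrin chain on each array, as the log2 RMA value on the vertical axis, with PLZF_ON in red left of WT in dark blue. Symbols mark replicates 1 to 3, with replicate 3 open, short lines are means of replicates 1 and 2, and the dotted line is the background limit of 5.20; Itga1 is separated in all 3 PLZF_ON arrays, while 5 of the 7 chains have their lowest value in PLZF_ON replicate 3.

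Itga1, the chain that gives the collagen receptor its specificity, was at 5.84, 5.06 and 5.30 in PLZF_ON replicates 1 to 3, against 7.54, 7.31 and 7.76 in WT replicates 1 to 3. Every PLZF_ON array lay below every WT array, by at least 1 log2 unit, and PLZF_ON replicate 2 was below the background limit. With 2 arrays in each group the difference of log2 levels was -1.98, a 3.94-fold lower level with a limma adjusted p of 0.075 (SE 0.27, 95% interval -2.62 to -1.33). Since 1 of these PLZF_ON arrays lay below the background limit, the size of the fold is less certain than its direction. With replicate 3 added, Itga1 fell by 2.14 on the log2 scale, 4.40-fold, at a limma adjusted p of 0.0425 (SE 0.23, 95% interval -2.68 to -1.60). Of 23521 rows, 24 had a more negative difference over the 4 arrays and 17 over the 6. In bulk samples, fewer cells that carry Itga1 and less Itga1 RNA per cell cannot be told apart.

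The call on Itga1 depended on the arrays used, while its direction did not. In the 6-array comparison the limma adjusted p was 0.0271 without PLZF_ON replicate 3 and 0.0452 without PLZF_ON replicate 1. It was 0.0999 without PLZF_ON replicate 2, and 0.303, 0.171 and 0.24 without WT replicates 1, 2 and 3. Over the 4 arrays it was 0.0486 without PLZF_ON replicate 1 and 0.209 without PLZF_ON replicate 2. The log2 difference lay between -2.37 and -1.59 in all of these fits.

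Markers of iNKT subsets are given beside Itga1. NKT1 cells produce interferon-gamma, NKT2 cells interleukin-4 and NKT17 cells interleukin-17. The mean level of 8 NKT1 markers was 8.71, 7.52 and 8.21 in PLZF_ON replicates 1 to 3, against 9.69, 9.46 and 9.75 in WT replicates 1 to 3. PLZF_ON replicate 2 was lowest for Itga1 and for this mean. The mean of 6 NKT17 markers lay between 4.46 and 4.68 in PLZF_ON and between 5.97 and 6.80 in WT, with 0 or 1 of 6 above the background limit in PLZF_ON against 5 of 6 in WT. The mean of 6 NKT2 markers was 9.05, 9.11 and 7.88 in PLZF_ON replicates 1 to 3, against 8.22, 8.54 and 7.88 in WT replicates 1 to 3, so that the groups were apart over the 4 arrays and overlapped through replicate 3. Over the 4 arrays 0 of 8 NKT1, 0 of 6 NKT2 and 3 of 6 NKT17 markers passed limma after adjustment over all rows. All 3 were lower, beside 0.170% of all rows that passed in either direction. At an unadjusted p under 0.05 by limma, 6 of 8 NKT1 markers were lower, 5 of 6 NKT2 markers higher and 6 of 6 NKT17 markers lower, beside 4.53% of all rows lower and 4.88% higher. With all 6 arrays the adjusted calls were 0 of 8, 0 of 6 and 2 of 6, beside 0.0935% of all rows. The unadjusted counts by limma were then 7 of 8 lower, 0 of 6 and 5 of 6 lower. Of all rows, 3.32% were lower and 2.45% higher at that threshold. The part of subset composition in the Itga1 level was not tested.

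The genome neighbours of Itga1 in GRCm38.p6 had smaller differences. Itga2, the chain of another collagen receptor (CD49b) and the next protein-coding gene on chromosome 13, was at 7.48, 7.29 and 6.77 in PLZF_ON, against 6.26, 7.17 and 7.48 in WT. Its groups overlapped over the 6 arrays, and its log2 difference over the 4 arrays was 0.67 (SE 0.29, limma adjusted p = 0.569). Pelo, a ribosome rescue factor whose gene lies inside Itga1, was at 6.76, 6.55 and 6.60 in PLZF_ON, against 7.15, 7.23 and 7.18 in WT. The Pelo difference was -0.53 over the 4 arrays (SE 0.14, limma adjusted p = 0.294). Whether the rows of Itga1 and Pelo share signal was not tested. Isl1, on the other side, had a difference of 0.23 (limma adjusted p = 0.688) at levels between 4.51 and 5.17, below the background limit.

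By Pearson correlation over the 6 arrays, the 3 named genes closest to Itga1 among 10110 were Dennd4a (r = 0.993), a guanine exchange factor for Rab GTPases, Il12rb2 (r = 0.991), a chain of the interleukin-12 receptor, and Rgs1 (r = 0.988), which dampens G protein signalling. These points share the 2 genotype groups and the same arrays, so any gene with a like difference scores high. Their log2 differences over the 4 arrays were -1.81, -2.05 and -1.59. Like Itga1, all 3 were higher in each WT array than in each PLZF_ON array.

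Itga4, the alpha chain of VLA-4, was at 8.23, 7.83 and 7.89 in PLZF_ON replicates 1 to 3, against 6.95, 7.52 and 7.71 in WT replicates 1 to 3. All PLZF_ON arrays lay above all WT arrays, but the margin between PLZF_ON replicate 2 and WT replicate 3 was small beside the spread of WT. The difference was 0.80 over the 4 arrays, 1.74-fold (SE 0.24, 95% interval 0.22 to 1.37, limma adjusted p = 0.352, unadjusted p = 0.0148). With 6 arrays it was 0.59 (SE 0.23, limma adjusted p = 0.784, unadjusted p = 0.0344), and replicate 3 alone differed by 0.18. WT replicate 1 set much of the size, since without it the difference was 0.51 over the 4 arrays and 0.37 over the 6. The unadjusted p from limma over all rows was then 0.0645 and 0.126, and over the 4 arrays it was 0.085 without PLZF_ON replicate 1, where the difference was 0.59. A row listed for both Cerkl and Itga4, left out of the tests, lay between 5.09 and 5.31 in PLZF_ON and between 5.18 and 5.31 in WT. The genes closest to Itga4 over the 6 arrays were Wdr5b (r = 0.995), Gramd4 (r = 0.976) and Card9 (r = 0.969), with log2 differences of 0.43, 0.81 and 0.43 over the 4 arrays.

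The promoters of Itga1 and Itga4 are shown because these alpha chains differed most, in opposite directions. RefSeq promoter windows of GRCm38.p6, running from 250 bases before to 50 bases after the start site, were at hand for 4 of the 7 chains. The 5 motifs were searched on both strands and are in capitals where they matched. RUNX factors were searched with the letters TGTGGT. T-box factors, such as the NKT1 regulator T-bet, were searched with AGGTGTGA. The letters AGATAA stand for GATA factors, which include the NKT2 regulator GATA3. The GC box, bound by Sp factors, was searched as GGGCGG and the ETS family as CCGGAAG. None of these motifs overlaps another here. The Itga1 window is chr13:115101915-115102214 on the minus strand, and the Itga4 window is chr2:79255176-79255475 on the plus strand.
Itga1: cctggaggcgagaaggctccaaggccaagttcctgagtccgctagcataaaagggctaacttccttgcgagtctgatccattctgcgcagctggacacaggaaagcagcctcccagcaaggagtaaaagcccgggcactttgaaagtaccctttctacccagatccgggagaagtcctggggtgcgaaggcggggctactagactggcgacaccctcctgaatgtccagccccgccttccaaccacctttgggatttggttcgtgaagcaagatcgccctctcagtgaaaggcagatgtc
Itga4: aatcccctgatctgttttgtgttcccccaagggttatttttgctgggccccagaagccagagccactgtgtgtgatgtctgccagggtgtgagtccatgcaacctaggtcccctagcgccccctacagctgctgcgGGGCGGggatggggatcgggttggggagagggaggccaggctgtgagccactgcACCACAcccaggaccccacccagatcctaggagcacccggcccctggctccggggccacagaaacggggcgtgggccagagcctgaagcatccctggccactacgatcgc
The Itga4 window held 1 RUNX match and 1 GC box match, and the Itga1 window held 0 matches to the 5 motifs. A RUNX match was present in 16.8% of 32851 promoter windows, a GC box in 35.7%, a GATA match in 11.2%, an ETS match in 8.86% and a T-box match in 1.28%. The windows were 56.7% G or C for Itga1 and 64.3% for Itga4, beside a median of 52.7% over all windows. These matches describe the letters of the windows only.

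Itga6, the alpha chain of the laminin receptors, was at 6.83, 6.81 and 6.07 in PLZF_ON replicates 1 to 3, against 6.99, 7.08 and 6.79 in WT replicates 1 to 3. PLZF_ON replicates 1 and 2 lay just below WT replicates 1 and 2, and just above WT replicate 3. The difference was -0.22 over the 4 arrays (SE 0.13, 95% interval -0.53 to 0.10, limma adjusted p = 0.721) and -0.39 over the 6 (SE 0.23, limma adjusted p = 0.941). Without PLZF_ON replicate 3 the 5-array difference was -0.13, so that array set most of its size. Itgb4, the other beta chain that pairs with Itga6, lay between 4.75 and 5.37 in PLZF_ON and between 4.94 and 5.21 in WT, close to the background limit.

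Itgav (CD51) pairs with several beta chains and binds vitronectin and latent TGF-beta. It was at 7.25, 7.38 and 6.43 in PLZF_ON replicates 1 to 3, against 6.99, 7.13 and 7.25 in WT replicates 1 to 3. PLZF_ON replicate 3 was the lowest of all arrays and replicate 2 the highest. The difference was 0.25 over the 4 arrays (SE 0.14, 95% interval -0.09 to 0.59, limma adjusted p = 0.685) and -0.10 over the 6 (SE 0.26, limma adjusted p = 0.964), where its sign turned to 0.19 without PLZF_ON replicate 3. The second row of Itgav lay below the background limit on every array, with a difference of 0.34 over the 4 arrays (SE 0.19, limma adjusted p = 0.685).

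Of the other beta chains that pair with Itgav, Itgb3 was the only one above the background limit. Itgb3 (CD61) was at 8.90, 9.10 and 8.09 in PLZF_ON replicates 1 to 3, against 7.89, 8.28 and 7.82 in WT replicates 1 to 3. The groups overlapped through PLZF_ON replicate 3, and the difference was 0.91 over the 4 arrays (SE 0.18, limma adjusted p = 0.165, unadjusted p = 0.002) and 0.70 over the 6 (limma adjusted p = 0.811). Itgb5, Itgb6 and Itgb8 had log2 differences of -0.25, 0.11 and 0.08 over the 4 arrays.

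Itgb1 (CD29), the beta chain shared by the collagen, laminin and VLA-4 receptors, was at 8.26, 7.68 and 6.65 in PLZF_ON replicates 1 to 3, against 8.47, 8.56 and 8.34 in WT replicates 1 to 3. The PLZF_ON arrays spread over more than 1 log2 unit and all lay below the narrow range of WT. The difference was -0.55 over the 4 arrays, 1.46-fold lower (SE 0.21, 95% interval -1.06 to -0.03, limma adjusted p = 0.492, unadjusted p = 0.0405). With 6 arrays it was -0.93 (SE 0.37, limma adjusted p = 0.801, unadjusted p = 0.0366), and without PLZF_ON replicate 3 it was -0.49. Without PLZF_ON replicate 2 the 4-array difference was -0.26 (limma unadjusted p = 0.192), and without WT replicate 1 or 2 the unadjusted p was 0.0676 and 0.11 by limma. The genes closest to Itgb1 over the 6 arrays were Zfp729a (r = 0.996), Maf1 (r = 0.993), a repressor of RNA polymerase III, and Rb1cc1 (r = 0.993), which acts in autophagy. Each of these 3 genes was also lowest in PLZF_ON replicate 3.

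Itgal (CD11a), the alpha chain of LFA-1, was at 10.39, 10.37 and 9.66 in PLZF_ON replicates 1 to 3, against 10.56, 10.54 and 10.53 in WT replicates 1 to 3. Replicates within WT differed by less than 0.05 log2 units, and every PLZF_ON array lay below them. The difference was nevertheless small, -0.17 over the 4 arrays (SE 0.13, 95% interval -0.48 to 0.14, limma adjusted p = 0.795), and -0.41 over the 6 (SE 0.22, limma adjusted p = 0.941), with -0.16 without PLZF_ON replicate 3.

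Itgb2 (CD18), the beta chain of LFA-1, was at 9.97, 9.85 and 8.77 in PLZF_ON replicates 1 to 3, against 10.03, 9.91 and 9.74 in WT replicates 1 to 3. Only PLZF_ON replicate 3 lay outside the WT range. The difference was -0.06 over the 4 arrays, where the 95% interval of -0.39 to 0.27 left out a change of 1.5-fold (SE 0.14, limma adjusted p = 0.95). With 6 arrays the Itgb2 difference was -0.36 (SE 0.31, limma adjusted p = 0.941), and 0.02 without PLZF_ON replicate 3. The 6-array 95% interval of -1.09 to 0.36 did include a 1.5-fold lower level. The other alpha chains that pair with Itgb2 and are named here were near the background limit. Itgam (CD11b) had a difference of 0.49 over the 4 arrays (SE 0.18, limma adjusted p = 0.465), and Itgax (CD11c) lay between 4.54 and 5.68 in PLZF_ON and between 3.96 and 5.52 in WT.

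**Figure D2:**
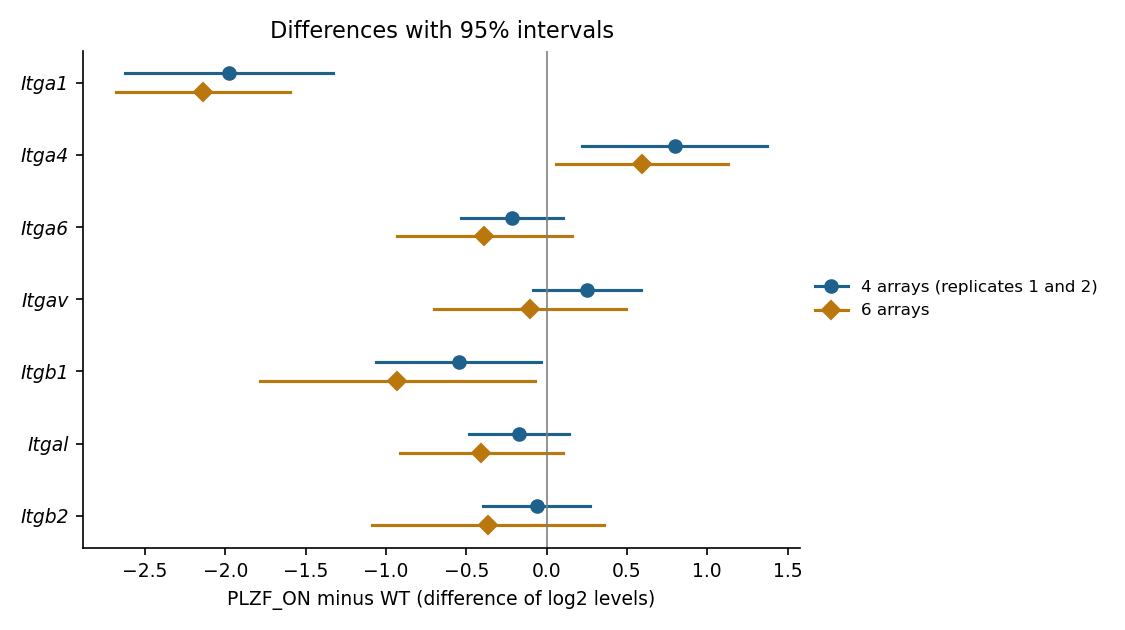
Difference of log2 levels, PLZF_ON minus WT, for each integrin chain on the horizontal axis, with limma 95% intervals, over the 4 arrays (circles) and the 6 arrays (diamonds). The intervals of Itga1, Itga4 and Itgb1 lie off 0 in both comparisons before adjustment, and the interval of Itga1 lies below -1.

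The chains of a receptor were then set against each other within each array, as the alpha row minus the beta row on the log2 scale, relative to the WT mean. This shows whether partners differed unequally between the groups and does not compare their amounts. The value for Itga1 over Itgb1 was -1.33 and -1.53 in PLZF_ON replicates 1 and 2, against 0.16 and -0.16 in WT replicates 1 and 2. The collagen pair was thus tilted away from Itga1 by -1.43 over the 4 arrays, beyond the spread of either group. Itga4 over Itgb1, the VLA-4 pair, was at 1.26 and 1.43 in PLZF_ON, against -0.24 and 0.24 in WT, a tilt of 1.34 toward Itga4. The direction was opposite to that of the collagen pair although both use Itgb1. Itgav over Itgb1 was at 0.44 and 1.15 in PLZF_ON and at -0.02 and 0.02 in WT, and Itga6 over Itgb1 at 0.05 and 0.61 in PLZF_ON and at 0.0015 and -0.0015 in WT. The laminin tilt of 0.33 was smaller than the SD of 0.39 between the PLZF_ON arrays. LFA-1, Itgal over Itgb2, tilted by -0.11 over the 4 arrays.

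With 2 arrays per group the exact permutation test over samples, two-sided, cannot give a p below 0.333, and all 5 pairings had p = 0.333. With 3 arrays per group the smallest p is 0.1, which the collagen pair (-1.21), VLA-4 (1.52), Itgav over Itgb1 (0.82) and the laminin pair (0.54) reached by the exact permutation test, each with p = 0.125 after adjustment over the 5 pairings. LFA-1 had -0.04 and p = 0.7 by the same exact test. The pairings other than LFA-1 all subtract the same Itgb1 row, so they are not separate results. Over the 6 arrays Itgb1 itself differed by -0.93, against 0.59 for Itga4, -0.10 for Itgav and -0.39 for Itga6. The positive Itgav and Itga6 values thus came with alpha chains that were themselves lower. In PLZF_ON replicate 3 the collagen value was -0.43, since Itgb1 was itself low there, and the VLA-4 value was 2.31. The collagen value over the 6 arrays was -1.60 without that array, and the VLA-4 value was 1.12.

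**Figure D3:**
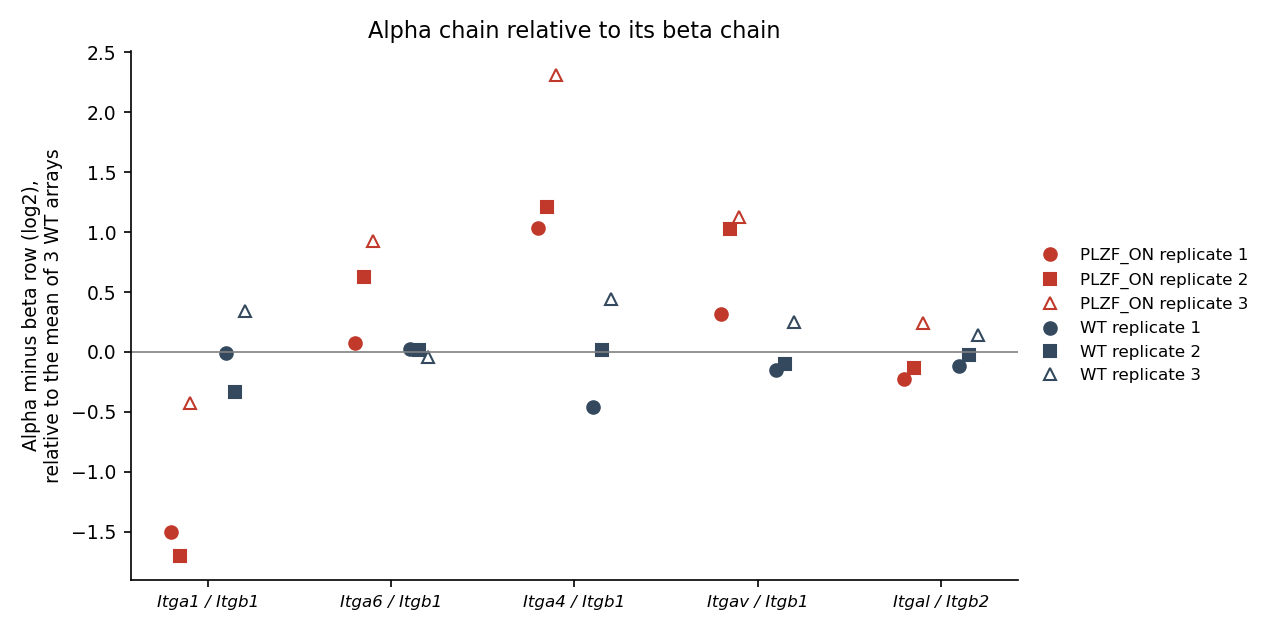
Alpha row minus beta row on the log2 scale for 5 receptor pairings, relative to the mean of the 3 WT arrays, with PLZF_ON in red left of WT in dark blue and replicate 3 open. Itga1 over Itgb1 is lower in each PLZF_ON array than in each WT array. The margin is narrow for PLZF_ON replicate 3, at -0.43 against -0.33 in WT replicate 2. Itga4, Itgav and Itga6 over Itgb1 are higher in each PLZF_ON array than in each WT array, while Itgal over Itgb2 overlaps between the groups.

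Of 19 other measured integrin chains, 1 passed limma over all rows in both comparisons. The share of all rows that passed was 0.170% over the 4 arrays and 0.0935% over the 6. Over the 4 arrays 2 chains were higher and 1 lower at an unadjusted p under 0.05 by limma, beside 9.41% of all rows. That count of 3 was 5 without WT replicate 2 and 2 to 4 without each of the other arrays. Itgae, the CD103 chain, was at 6.53, 6.12 and 5.39 in PLZF_ON, against 10.04, 10.00 and 9.73 in WT, and fell by 3.69 on the log2 scale over the 4 arrays (limma adjusted p = 0.0069). Its partner Itgb7, which also pairs with Itga4, was at 8.35, 8.29 and 7.73 in PLZF_ON, against 8.36, 8.28 and 8.46 in WT. The Itgb7 difference over the 4 arrays was -0.0035 (SE 0.13, limma adjusted p = 0.998). Over the 4 arrays Itgae and Itga1 were thus lower beside beta chains with smaller differences. The 2 pairs were not alike, since Itga1 did not pass (limma adjusted p = 0.075) and its partner Itgb1 differed by -0.55. The median difference of the 19 chains was -0.0035 over the 4 arrays, the same as that of all tested rows, and 6 of the 19 had a mean above the background limit.

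Genes that switch integrins on and tie them to actin showed 0 of 30 calls over the 4 arrays, with 9 under an unadjusted p of 0.05 by limma, 5 higher and 4 lower, beside 9.41% of all rows. That count was 5 without PLZF_ON replicate 1, 1 without PLZF_ON replicate 2, 3 without WT replicate 1 and 5 without WT replicate 2, and over the 6 arrays it was 3, with 1 higher and 2 lower. Talin (Tln1) and kindlin-3 (Fermt3), which bind beta chain tails to activate them, had log2 differences of -0.12 and 0.05. Cytip, which binds the LFA-1 regulator cytohesin-1 and reduces adhesion, was at 9.36, 9.66 and 9.06 in PLZF_ON, against 8.23, 8.08 and 7.78 in WT. Its groups were apart on all 6 arrays, beside 11.8% of all rows. The Cytip difference was 1.36 over the 4 arrays, 2.56-fold (SE 0.16, limma adjusted p = 0.0594), and 1.33 over the 6 (SE 0.21, limma adjusted p = 0.102). The focal adhesion protein zyxin (Zyx) had a difference of -0.69 (SE 0.20, limma adjusted p = 0.315), the actin crosslinker filamin A (Flna) of 0.54 (SE 0.16) and Lims1, a partner of integrin-linked kinase, of 0.41 (SE 0.13). Without PLZF_ON replicate 1 or 2, or either WT array, the adjusted p of Cytip lay between 0.0791 and 0.249.

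Among 12 membrane proteins that associate with integrins, 0 passed over the 4 arrays, and 2 were higher and 1 lower at an unadjusted p under 0.05 by limma, beside 9.41% of all rows. Cd81, a tetraspanin that associates with VLA-4, was at 8.61, 8.72 and 8.06 in PLZF_ON, against 7.49, 7.55 and 7.58 in WT, a difference of 1.15 over the 4 arrays (SE 0.13, limma adjusted p = 0.0589). Cd44, the hyaluronan receptor, was at 7.24, 6.83 and 6.52 in PLZF_ON, against 8.28, 7.91 and 8.02 in WT, a difference of -1.06 (SE 0.20, limma adjusted p = 0.157). Both kept the groups apart on all 6 arrays, beside 11.8% of all rows. The 6-array difference was 0.93 for Cd81 (limma adjusted p = 0.289) and -1.20 for Cd44 (limma adjusted p = 0.154). The tetraspanins Cd53 and Cd37 had differences of 0.39 (SE 0.14) and -0.23 (SE 0.14).

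Of 19 measured ligands, 1 passed limma in both comparisons, beside 0.170% of all rows over the 4 arrays and 0.0935% over the 6. This was Cdh1, the E-cadherin that CD103 binds, which fell by 2.08 over the 4 arrays (SE 0.13, limma adjusted p = 0.0132). It no longer passed without PLZF_ON replicate 1 (0.0523) or PLZF_ON replicate 2 (0.136), and Itgae did not pass without PLZF_ON replicate 2 (0.0874). The LFA-1 ligands Icam1 and Icam2 had differences of -0.35 (SE 0.25) and 0.24 (SE 0.16), and the laminin chain Lamc1 of -0.20 (SE 0.13). Only 6 of the 19 ligands had a mean above the background limit, and the VLA-4 ligands Vcam1 and Fn1 were below it on every array.

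**Figure D4:**
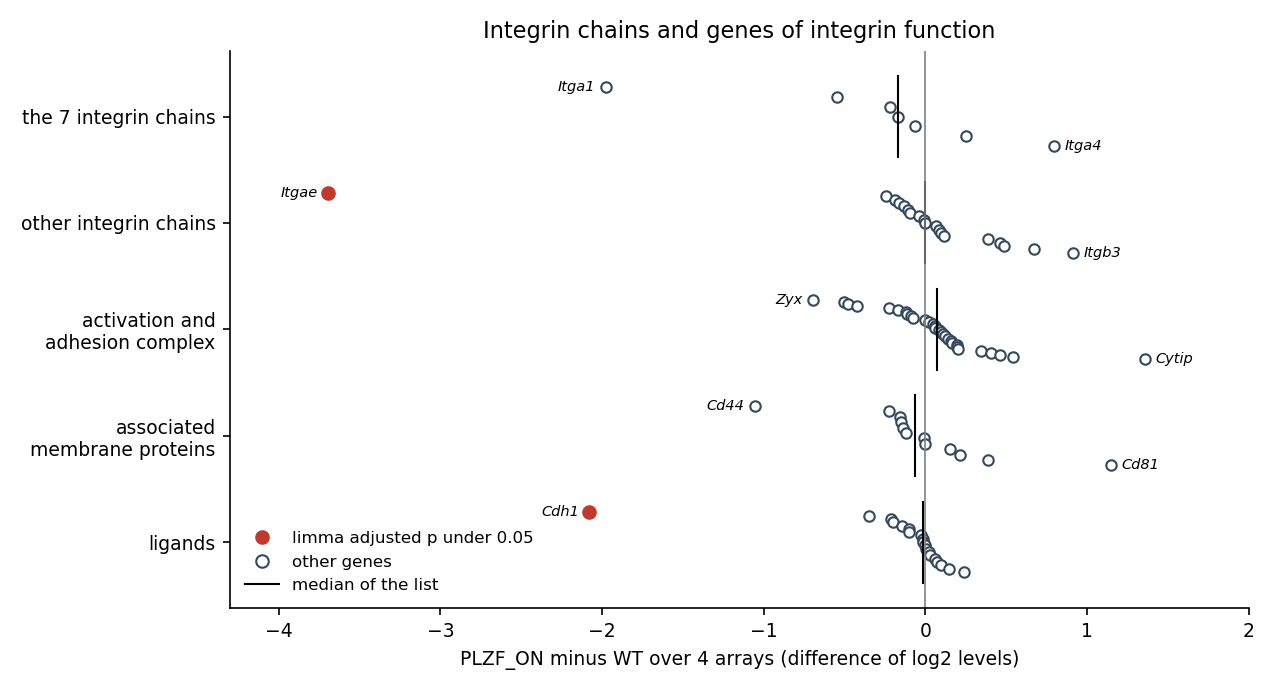
Difference of log2 levels, PLZF_ON minus WT over the 4 arrays, for the 7 integrin chains and 4 lists of related genes, with 1 point per gene and a vertical line at each list's median. Filled points passed a limma adjusted p of 0.05, which only Itgae and Cdh1 did; the medians of all 5 rows lie between -0.17 and 0.07.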

How the data were processed

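Expression was measured in iNKT cells of 3 PLZF_ON and 3 WT samples. The authors deposited log2 expression values, 1 per array row and sample; per the submitters' processing notes they come from RMA, with no version named there; neither build nor annotation is given in the sources used here. RMA corrects background, commonly equalises array distributions and summarises probes, which compresses differences of dim genes. The deposited distributions were not equal. PLZF_ON replicate 3 had a median of 5.01 and an SD of 1.79, against 4.88 to 4.92 and 1.97 to 2.01 on the other arrays. Quantile normalization again took the 6-array difference from -0.93 to -0.81 for Itgb1, from -0.36 to -0.25 for Itgb2 and from 0.59 to 0.71 for Itga4. The values were used as deposited.

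Of 41345 rows, 23521 with exactly 1 symbol in the platform annotation were tested, 1814 with several symbols were left out and 16010 were not listed there. Of the tested rows, 23328 had an Entrez number in the GRCm38.p6 gene table, which updated 0 symbols and gave neighbours. Groups came from the labels. R 4.3.3 and limma 3.58.1, with genotype as the only term, lmFit, eBayes and two-sided tests, were run over all tested rows and adjusted by Benjamini-Hochberg. Standard errors and 95% intervals are moderated. Chain pairings were tested by exact permutation over samples. No row was filtered for low values; the background limit was chosen after values were seen and only describes levels. Scripts were tested on simulated data.

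The members, gene lists, pairings and tests were chosen with earlier results of these data known. Named genes were the 7 chains, called genes and up to 4 others with the smallest p in each list, and the 3 genes most correlated with each of the 3 chains that differed most. Known partners, gene neighbours and Tln1, Fermt3, Vcam1, Fn1, Cd24a, Lyz2 and Cd68 were named after their values were seen. Alternatives were a replicate block, leaving out each array, quantile normalization, median centring, a variance trend, brighter rows, averaging the rows of 1 gene, and all rows.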

Additional observations from a re-analysis of the deposited data

How the results depend on the processing

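Itga1, Itgb1, Itga6 and Itgal kept a negative difference and Itga4 a positive one under every alternative run over 4 and over 6 arrays. Over the 6 arrays the sign turned without PLZF_ON replicate 3 for Itgav (0.19) and Itgb2 (0.015), with ranges over left-out arrays of -0.28 to 0.19 and -0.58 to 0.015. With 2 or 3 arrays per group the counts of calls moved with single arrays: over the 4 arrays 40 rows passed, against 0 without PLZF_ON replicate 2 and 106 without WT replicate 2, and over the 6 arrays 22 passed, against 107 without PLZF_ON replicate 3. Fits that leave 1 array in a group assume that it varies like the other group. The replicate numbers are not given as a pairing, and deviations of same-numbered arrays correlated at 0.0916, 0.253 and 0.238, with PLZF_ON replicate 1 closer to WT replicate 2. With the replicate block 1 of the 7 chains, Itga1 (limma adjusted p = 0.0303), and 101 rows passed over the 4 arrays, beside 0 and 40 without it. Leaving out arrays over the 4, 0 to 106 rows, 0 to 1 of the 7 chains, 0 to 1 other integrin chains and 0 to 1 ligands passed, and 1 to 2 of the 7 chains, 2 to 5 other integrin chains, 1 to 5 activation genes and 1 to 2 ligands had an unadjusted p under 0.05. Over the 6 arrays 0 to 107 rows and 0 to 1 of the 7 chains passed, and 852 to 2281 rows and 1 to 3 of the 7 chains had an unadjusted p under 0.05 by limma. Among all deposited rows 0 rows, 0 of the 7 chains, 0 other integrin chains and 0 ligands passed limma in the comparisons run on them, and 3042 rows over the 4 arrays and 2100 over the 6 had an unadjusted p under 0.05. Median centring gave 5 rows and 0 of the 7 chains passing over the 6 arrays, with 1 of the 7 chains under an unadjusted p of 0.05 and Itga1 at an adjusted p of 0.0744. A variance trend gave 1 call among activation genes over the 4 arrays, Cytip (limma adjusted p = 0.0375). The LFA-1 tilt over the 6 arrays ran from -0.18 to 0.0533 when arrays were left out, turning positive without PLZF_ON replicate 1 (0.0533), PLZF_ON replicate 2 (0.0048) or WT replicate 3 (0.03). The other 9 pairing values kept their direction in every alternative.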
